A study of Rattus norvegicus with 3 samples.

Results

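The genes of respiratory complex III, respiratory complex IV and ATP synthase were examined in renal proximal tubules of the rat. They were chosen by symbol, as the probe sets annotated to exactly 1 gene whose symbol starts with Uqcr, Cox4 to Cox8 or Atp5, together with Cyc1 and the mitochondrially encoded COX1 and COX2. This gave 48 of 31042 non-control probe sets, for 43 of the 14217 genes named on the array: 9 probe sets for 8 genes of complex III, 19 for 19 genes of complex IV and 20 for 16 genes of ATP synthase. The symbol pattern also took in Cox6c-ps1, a transcribed pseudogene. Another 5 probe sets that listed a symbol of the pattern beside a further gene were left out, so the complex III gene Uqcrb, the complex IV gene Cox7a2 and the c subunit genes Atp5mc1 and Atp5mc2 have no value below.

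The tubules came from male Sprague-Dawley rats, 7 to 8 weeks old, given an intraperitoneal dose of 250 units of heparin 30 min before they were decapitated. Kidneys were perfused with 10 ml of buffered saline and then with 10 ml of a 2 mg/ml collagenase solution, tissue was digested for 20 min, and tubules were separated on 42.5% Percoll. Total RNA was made into biotin-labelled cRNA and hybridised to 3 Affymetrix arrays, 1 per tubule sample. All 3 arrays belong to 1 group, and without a control nothing could be tested between conditions. The labels do not say whether the samples came from different animals, so the spread between arrays may be technical.

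Signals below are the deposited linear intensities, given as values on arrays 1, 2 and 3 or as mean ± SD (n = 3 arrays). The median signal of non-control probe sets was 34.9 to 37.4 per array and the 75th percentile was 167 to 181. Signals of 3' over 5' control probe sets stood at 1.40 to 1.52 for GAPDH and at 3.28 to 3.85 for beta-actin. All 8 proximal tubule markers listed, among them Lrp2 and Slc34a1, exceeded the median of every array, with a summed signal of 52795 to 58395 per array. All 4 thick ascending limb markers (summed signal 6621 to 8294) and all 4 endothelial markers (585 to 1041) did so too. For collecting duct 0 of 4 markers did, for intercalated cells 1 of 4, for white blood cells 1 of 4 and for red blood cells 1 of 3. For the distal convoluted tubule and for podocytes, 1 of 2 measured markers each did. Over all named genes, 61.0% exceeded the median of every array. In such bulk samples, fewer cells of a type and less RNA per cell cannot be told apart. With 3 arrays, precision is limited throughout.

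Complex III takes electrons from ubiquinol and passes them to cytochrome c, and complex IV passes them on to oxygen. Both pump protons across the inner mitochondrial membrane, and ATP synthase lets the protons flow back to make ATP. A few subunits are encoded by the mitochondrial genome and all the others by nuclear genes. Several nuclear subunits of complex IV exist as a widely expressed form and a form largely restricted to muscle, lung or testis. The proximal tubule relies on this pathway because sodium reabsorption consumes much ATP and the segment makes little of it by glycolysis.

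Most of these probe sets were bright. Of the 48, 38 exceeded the median of every array, against 45.8% of all non-control probe sets, and 37 exceeded the 75th percentile of every array, against 23.1%. Counted by gene, with each gene at its probe set of highest mean signal, 37 of 43 exceeded the median of every array, against 61.0% of all named genes. The 6 genes that did not were the lung, muscle and testis forms of complex IV subunits. Of the 35 other genes that are neither pseudogene nor inhibitor, called ubiquitous subunits here, 35 exceeded the 75th percentile of every array. Probe sets differ in affinity, so no order of abundance between single genes is read from these signals.

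Each gene was also given its percentile among the named genes of an array, which places its probe set's signal and not its transcript number. The median percentile was 98.9 ± 0.091 for complex III genes, 98.8 ± 0.041 for complex IV genes and 99.3 ± 0.018 for ATP synthase genes (mean ± SD over 3 arrays). With the plain probe sets alone (IDs that end in _at with no further letter), the value for complex IV was 96.0. For the 6 restricted forms it was 15.1 ± 2.66. By definition, the median over all named genes is 50. The list called complex I subunits here, taken by the symbol start Nduf without the assembly factors, stood at 97.0 ± 0.12. The symbol start also took in Ndufa4 and Ndufa4l2, which are not subunits of complex I. The 4 complex II subunits stood at 98.8 ± 0.014.

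**Figure D1:**
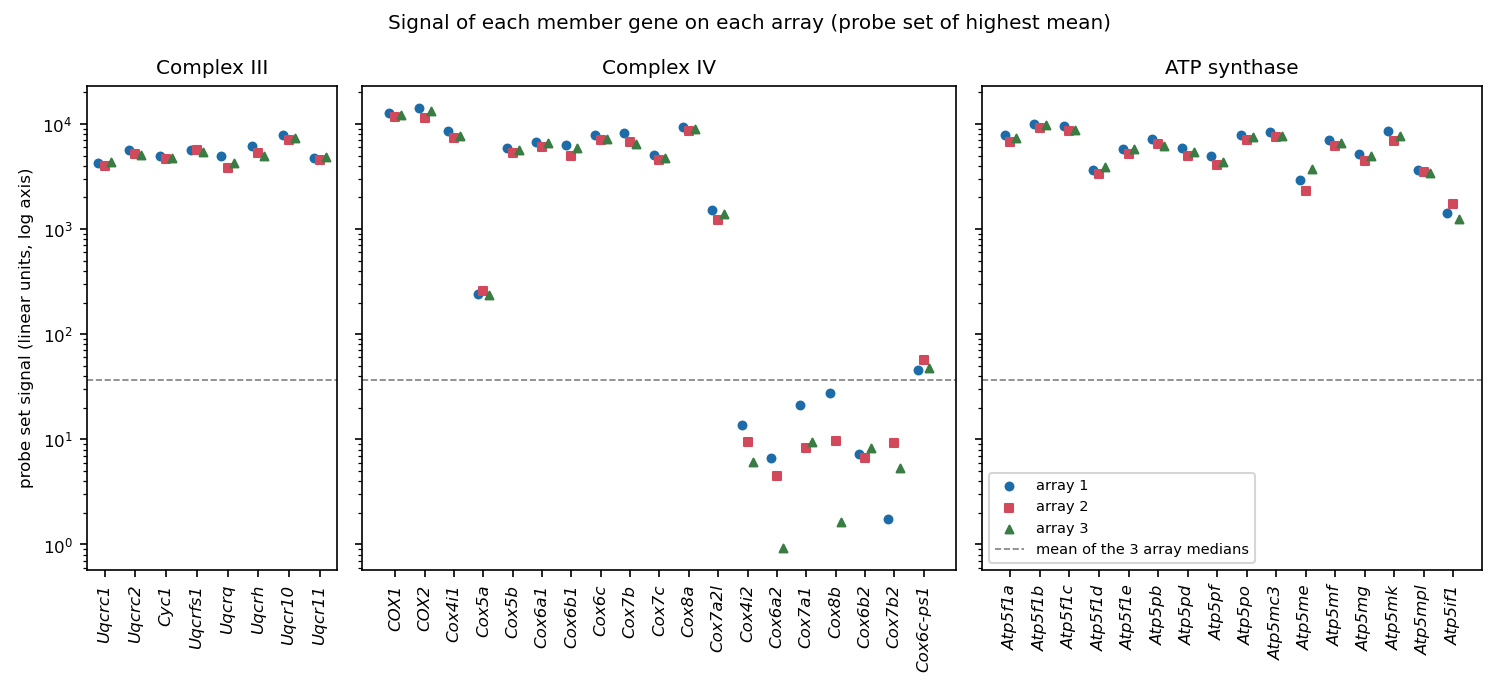
Signal of each of the 43 genes (horizontal axis, by complex) on each of the 3 arrays, in linear units on a log axis; each gene is shown by its probe set of highest mean, and the dashed line is the mean of the 3 array medians. The 35 ubiquitous subunits and Atp5if1 lie at 234 or more on every array, while the 6 restricted forms of complex IV lie at 27.6 or less.

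In complex III, all 9 probe sets lay above the 75th percentile on all 3 arrays, with mean signals from 1603 to 7419. The catalytic chain was represented by Uqcrfs1, the Rieske iron-sulfur protein, which takes the electron from ubiquinol, and by Cyc1, cytochrome c1, which hands it to cytochrome c. Uqcrfs1 gave 5615, 5642 and 5456, and Cyc1 gave 4917, 4599 and 4771. Uqcrfs1 was the steadiest of the ubiquitous subunits, with a coefficient of variation of 1.81%, and in deposited signal it was lowest on array 3, whereas 28 of the 35 were lowest on array 2.

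The core proteins Uqcrc1 and Uqcrc2, which form the matrix arms of complex III, gave 4203 ± 178 and 5305 ± 271. The hinge protein gene Uqcrh gave 6134, 5318 and 4995. Among the small accessory subunits, Uqcrq gave 4929, 3787 and 4241, Uqcr10 gave 7419 ± 409 and Uqcr11 gave 4710.3 ± 177. Uqcrq had the widest range over the arrays in complex III, 0.39 on the scale of log2(signal + 16) centred on each array median, which is the scale of every range and deviation below.

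In complex IV, the catalytic subunits of the mitochondrial genome were COX1, which holds the oxygen-reducing centre, and COX2, which receives electrons from cytochrome c. COX1 gave 12627, 11551 and 12029.8 and COX2 gave 14158, 11352 and 13395. Both were highest on array 1 and lowest on array 2, COX2 over a range of 0.33 and COX1 over 0.14. The other protein genes of the mitochondrial genome, such as CYTB of complex III and ATP6 of ATP synthase, were not analysed here.

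The nuclear subunits of complex IV that are widely expressed gave mean signals up to 8942. Cox4i1, the largest nuclear subunit and a site of regulation by ATP, gave 8476, 7324 and 7688. Cox5b, which binds zinc, gave 5617 ± 332, Cox6a1 gave 6460.4 ± 328, Cox6b1, which faces the cytochrome c side, gave 5712 ± 676, and Cox6c gave 7357 ± 397. Of the smallest subunits, Cox7b gave 7106 ± 886, Cox7c gave 4783 ± 289 and Cox8a gave 8942 ± 393.

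Cox5a, the partner of Cox5b and a binding site of thyroid hormone metabolites, stood apart in signal at 239, 256 and 234. It was the only one of the 35 ubiquitous subunits whose mean lay below 1000, and it still lay above the 75th percentile on each array. Its 3 values differed little, with a coefficient of variation of 4.79%. It rests on a single probe set. A further probe set that lists Cox5a beside another gene is 1 of the 5 left out, which gave signals from 2432 to 9081. Whether the low signal belongs to the gene or to the probe set was not tested. Cox7a2l, which joins complexes III and IV in supercomplexes, gave 1503, 1214 and 1378.

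The restricted forms of complex IV were all below the array median on all 3 arrays. Among the forms of heart and skeletal muscle, Cox6a2 gave 6.70, 4.44 and 0.925, Cox7a1 gave 21.4, 8.32 and 9.34, and Cox8b gave 27.6, 9.57 and 1.65. All 3 were highest on array 1, at levels where the range in signal units was small. Cox4i2, the form of lung, gave 13.8, 9.46 and 6.10. The testis forms Cox6b2 and Cox7b2 gave 7.44 ± 0.838 and 5.40 ± 3.69. Markers of smooth, heart and skeletal muscle were also low, with 2 of 9 listed genes, Acta2 and Myh11 of smooth muscle, above the median of every array and a summed signal of 176 to 201. Their part in these values was not tested. The pseudogene Cox6c-ps1 gave 45.2, 56.6 and 47.6, just above the array median on each array.

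In ATP synthase, the catalytic head of the F1 part is built from alpha and beta subunits, encoded by Atp5f1a and Atp5f1b. Atp5f1a gave 7811, 6715 and 7345, and Atp5f1b, which carries the catalytic sites, gave 9969, 9082 and 9805. Both were highest on array 1 and lowest on array 2 in signal. The central stalk that turns within the head was represented by Atp5f1c (9006 ± 540.2), Atp5f1d (3606 ± 279) and Atp5f1e (5559 ± 347).

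The peripheral stalk, which keeps the head from turning, gave 6563 ± 507 for Atp5pb, 5415 ± 454 for Atp5pd, 4461 ± 436 for Atp5pf and 7425 ± 409 for Atp5po, the last by the brighter of its probe sets. Atp5mc3, 1 of the genes of the proton-carrying c ring, gave 8406, 7427 and 7633. The small membrane subunits, which link enzyme dimers and shape the cristae, gave 6571 ± 404 for Atp5mf, 4879 ± 388 for Atp5mg, 7681 ± 777 for Atp5mk and 3528 ± 96.6 for Atp5mpl. The remaining membrane subunit, Atp5me, and the inhibitor Atp5if1 had the widest ranges among bright ATP synthase members and are described with the comparison of arrays.

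**Figure D2:**
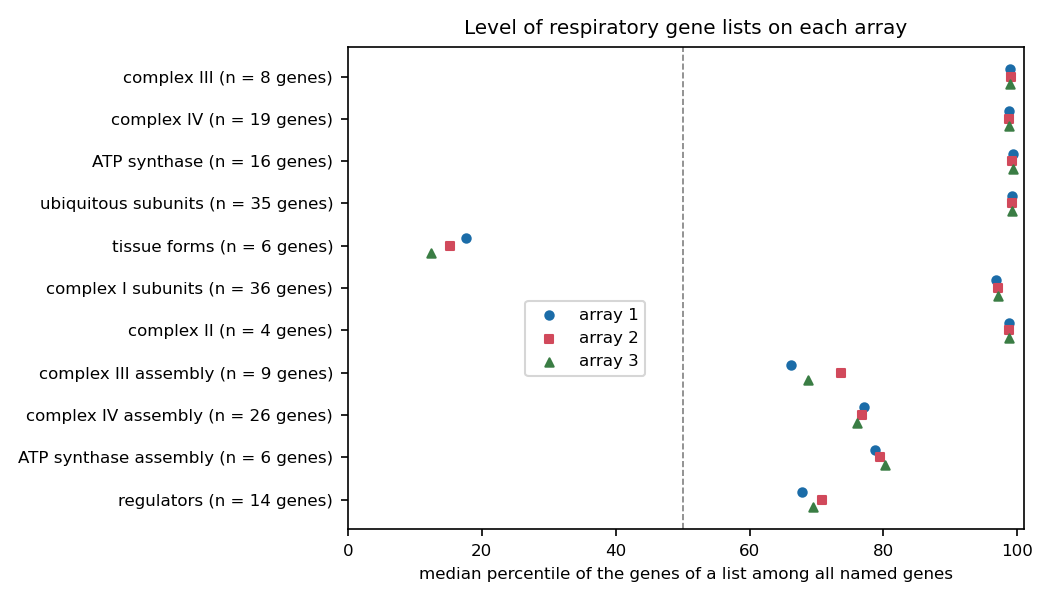
Median percentile of the genes of each list among all named genes (horizontal axis, in percent) on each of the 3 arrays; the dashed line at 50 is the median of all named genes. The subunit lists of complexes III and IV and of ATP synthase stand near 99 on every array, their assembly factors between 66.3 and 80.2, and the restricted forms between 12.4 and 17.7.

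The genes that build and regulate these complexes were also measured, from lists chosen for this purpose. Of the assembly factors, 8 of 9 for complex III, 24 of 26 measured for complex IV and 5 of 6 for ATP synthase exceeded the median of every array, against 61.0% of all named genes. Their median percentiles were 69.5 ± 3.73, 76.7 ± 0.55 and 79.5 ± 0.73, and the subunit lists stood near 99. For complex III, Uqcc2, needed to make cytochrome b, gave 456 ± 32.1, and Lyrm7, which escorts the Rieske protein, lay below the median of every array. For complex IV, Coa5 gave 3017 ± 330.1 and Taco1, which activates translation of COX1, gave 25.4 ± 10.5. For ATP synthase, the membrane insertase gene Oxa1l gave 1245 ± 48.8 and Tmem70, which helps assemble the c ring, gave 27.3 ± 10.5.

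Of 14 listed regulators of mitochondrial genes, 14 exceeded the median of every array, against 61.0% of all named genes, and their median percentile was 69.4 ± 1.46. The coactivator gene Ppargc1a gave 692, 568 and 591. Its partner receptor gene Esrra gave 390.2 ± 37.2 and Esrrg gave 854 ± 47.8. Of the factors known to bind promoters of respiratory genes, Nrf1 gave 62.3 ± 6.70, Gabpa 298 ± 36.1, Gabpb1 143 ± 19.4 and Yy1 1511 ± 91.5. Tfam, which packages and transcribes the mitochondrial genome, gave 439 ± 31.0. Hccs, which attaches heme to cytochrome c, gave 645 ± 122, and cytochrome c itself was not analysed here because its probe sets listed several genes.

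Promoters of the nuclear genes were read from the RefSeq windows of GRCr8, each 250 bases before and 50 bases after a gene's start, and 34 of the 43 genes had one. The motifs of factors known for respiratory genes were searched on both strands: GCGCA then any base then GCGC for NRF1, CCGGAAG for the ETS factor GABP and AANATGGC for YY1. No matches of different motifs overlapped in these 34 windows. The NRF1 letters stood in 6 of 28 windows of ubiquitous subunits, against 7.88% of 13192 windows of genes named on the array. The ETS letters stood in 11 of 28, against 14.2%, and the YY1 letters in 10 of 28, against 8.49%. Of the 5 restricted forms with a window, 0 held the NRF1 or ETS letters and 1, Cox7b2, held the YY1 letters. Given the shares over array genes, 5 windows are too few to read these counts as a difference. Over the 3 motifs, 20 of 28 ubiquitous subunits held at least 1 of them, against 26.2% of the windows of array genes. The letters TATAAA stood in 4 of 28 windows of ubiquitous subunits, against 8.47%, and in 1 of the 5 restricted forms, Cox8b. A match is a description of the letters and not a site.

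The 250 bases before the start are printed for 4 genes, to set members with matches beside a restricted form without one. Capitals mark the NRF1, ETS and YY1 letters on either strand, and each is read 5′ to 3′ on the strand of the gene. Uqcrc1 (chr8:118467973-118468222, plus strand) holds 1 NRF1 match, Atp5me (chr14:1464610-1464859, plus strand) holds all 3 motifs, and Cox8a (chr1:213833624-213833873, minus strand) holds 2 ETS matches. Cox8b (chr1:205408274-205408523, minus strand), the muscle form that replaces Cox8a, holds none of the 3 motifs. Some ubiquitous subunits, such as Cox5a and Uqcrfs1, also held none of them in their windows. In their full windows Uqcrc1 and Cox8a each also hold the YY1 letters, which run past the start and are cut off here.
Uqcrc1: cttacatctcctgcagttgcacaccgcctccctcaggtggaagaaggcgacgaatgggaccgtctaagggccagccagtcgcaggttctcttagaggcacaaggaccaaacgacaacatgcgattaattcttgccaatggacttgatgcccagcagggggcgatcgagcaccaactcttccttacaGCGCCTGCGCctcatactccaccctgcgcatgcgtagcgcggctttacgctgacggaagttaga
Atp5me: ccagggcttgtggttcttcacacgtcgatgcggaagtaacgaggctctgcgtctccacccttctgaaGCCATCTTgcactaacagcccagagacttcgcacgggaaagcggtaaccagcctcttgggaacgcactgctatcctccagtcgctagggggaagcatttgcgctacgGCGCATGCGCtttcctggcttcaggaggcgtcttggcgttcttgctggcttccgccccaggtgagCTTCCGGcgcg
Cox8a: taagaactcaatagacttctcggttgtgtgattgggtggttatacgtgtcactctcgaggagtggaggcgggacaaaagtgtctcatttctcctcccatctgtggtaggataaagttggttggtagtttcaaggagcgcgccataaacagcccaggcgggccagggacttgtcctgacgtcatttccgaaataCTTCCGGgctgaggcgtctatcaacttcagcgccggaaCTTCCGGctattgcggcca
Cox8b: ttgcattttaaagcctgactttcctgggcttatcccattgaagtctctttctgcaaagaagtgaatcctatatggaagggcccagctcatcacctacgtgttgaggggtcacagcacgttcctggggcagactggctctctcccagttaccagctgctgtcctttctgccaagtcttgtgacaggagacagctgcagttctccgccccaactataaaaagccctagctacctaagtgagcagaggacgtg

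The windows also differed in their count of the dinucleotide CG. The 28 ubiquitous subunits held 6 to 38 CG per 300 bases, with a median of 18, which is also the median of the windows of array genes. The 5 restricted forms held 5 to 10, with a median of 6. The groups overlapped, since Cox6b1 and Cox7b, with signals of 5712 ± 676 and 7106 ± 886, each held 6 CG. Cox5a, the ubiquitous subunit whose only probe set used here had a low signal, held 36.

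**Figure D3:**
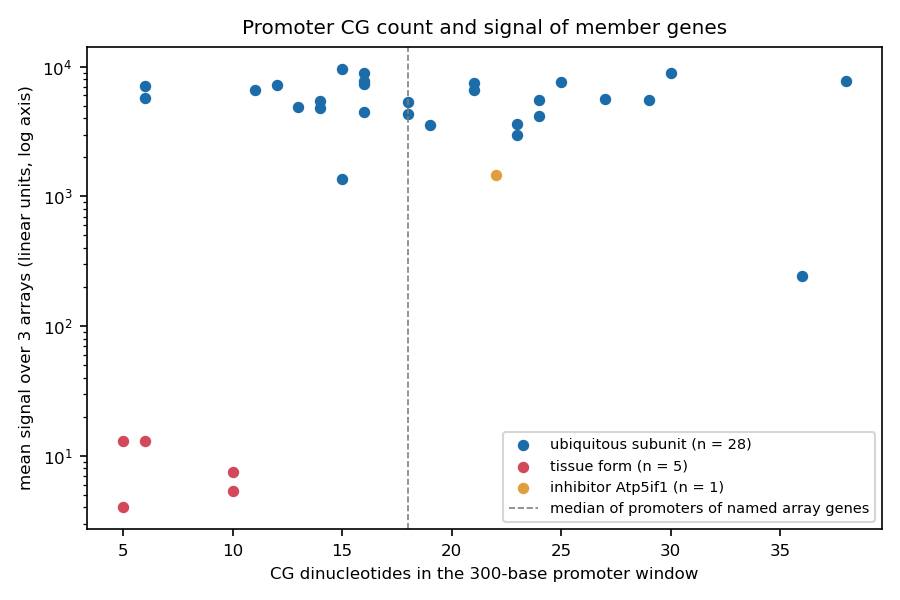
CG dinucleotides in the 300-base promoter window (horizontal axis) against the mean signal over 3 arrays (vertical axis, log scale) for the 34 genes with a window; colours separate ubiquitous subunits, restricted forms and the inhibitor. The 5 restricted forms lie at 5 to 10 CG and the 28 ubiquitous subunits at 6 to 38.

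The 3 arrays were then compared. Members with a mean signal above 1000 moved together by a small amount: of 36 such probe sets, 26 were highest on array 1 and 33 were lowest on array 2 after centring. Their median deviation from their own means was 0.07, -0.11 and 0.04 on arrays 1, 2 and 3. Bright probe sets as a whole did the same. Of all 1740 probe sets with a mean above 1000, 60.3% were highest on array 1 and 78.0% were lowest on array 2, and their median deviations were 0.08, -0.11 and 0.03. The proximal tubule markers deviated by 0.07, -0.11 and 0.06, the thick ascending limb markers by 0.16, -0.19 and 0.01, and complex I subunits by 0.08, -0.14 and 0.04. Other marker lists were highest on array 3: the endothelial markers deviated by -0.43, -0.03 and 0.46, the collecting duct markers by -0.23, -0.30 and 0.36, the intercalated cell markers by -0.25, -0.04 and 0.29, the distal convoluted tubule markers by -0.13, -0.09 and 0.22, and the white blood cell markers by -0.07, -0.13 and 0.23. Outside the endothelial list, most of these markers did not exceed the median of every array, so their deviations rest on low signals. The distal convoluted tubule list held only 2 measured genes. The beta-actin ratio was 3.85, 3.28 and 3.66, and the GAPDH ratio, in another order, was 1.52, 1.52 and 1.40. The part of these in the members' order was not tested.

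Quantile normalization, which gives all arrays 1 distribution, removed the order. The members above 1000 were then highest on arrays 1, 2 and 3 in 8, 15 and 13 cases, with median deviations of 0.0017, 0.0037 and 0.0020. Of all probe sets above 1000, 32.1%, 32.2% and 35.7% were then highest on arrays 1, 2 and 3.

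The spread of the members was small. The median SD over arrays was 0.10 for the 36 bright members and 0.13 for all probe sets with a mean above 1000. A range of 2-fold or more was seen in 1 of the 48 members, Cox8b (range 1.24), against 5.10% of all probe sets. Among probe sets above the median level it was seen in 0 of 39 members, against 2.50%. Among those with a mean above 1000 it was seen in 0 of 36 members and in 17 of all 1740 probe sets. Such low counts do not set the members apart from probe sets of like level. All 3 values of Cox8b lay below the array median, and without array 1 or without array 3 the count over the 48 members was 0.

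Among the bright members, Atp5me had the widest range, and the inhibitor gene Atp5if1 was high on array 2. Atp5me, whose product helps join ATP synthase dimers, gave 2934, 2297 and 3728, a range of 0.77. Its deviations were -0.02, -0.37 and 0.39, so that it was lowest on array 2 like most bright members and highest on array 3 like 9 of the 36, against 35.7% of all probe sets above 1000. Atp5if1, which blocks the enzyme from running backwards when the membrane potential falls, gave 1417, 1735 and 1259. Of the 36 members with a mean signal above 1000, it was the only 1 highest on array 2 after centring. Over all probe sets above 1000 the share was 3.91%, so a count of 1 in 36 is near it. The deviations of Atp5if1 were -0.06, 0.22 and -0.16. After quantile normalization its deviation on array 2 was 0.34, and that of Atp5me on array 3 was 0.35. Atp5if1, Uqcrh and the dimmer probe set of Uqcrc2 were the 3 bright members lowest on array 3 after centring. Neither the range of Atp5me nor that of Atp5if1 reached 2-fold.

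**Figure D4:**
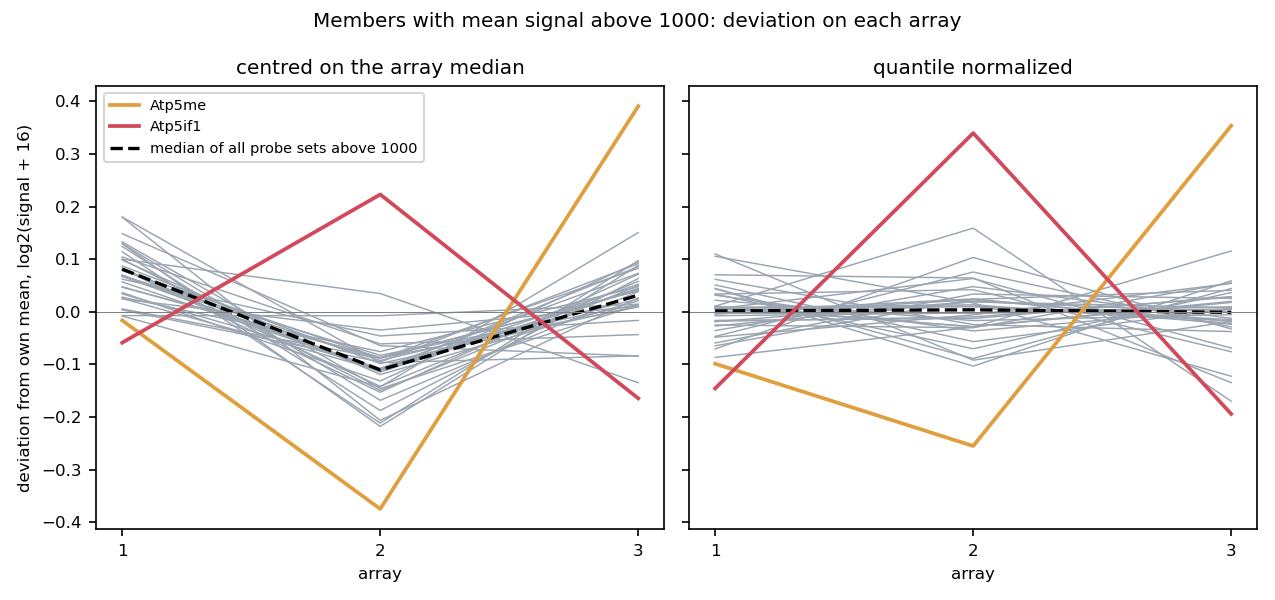
Deviation of the 36 members with a mean signal above 1000 from their own means on arrays 1, 2 and 3, on the log2(signal + 16) scale, with values centred on the array median (left) and after quantile normalization (right); each line is 1 probe set and the dashed line is the median of all 1740 probe sets above 1000. The dip on array 2 is gone after quantile normalization, while Atp5if1 and Atp5me keep deviations of 0.34 on array 2 and 0.35 on array 3.

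The other probe sets of these genes were dim. Atp5if1 had 3 probe sets, and the dimmer ones gave 59.7, 32.3 and 64.9, and 20.2, 16.6 and 34.6. The second probe set of Atp5me gave 24.0, 54.8 and 25.5. That of Atp5po gave 23.3, 43.5 and 24.9, beside 7816, 6999.7 and 7458 for the bright one. None of these dim probe sets exceeded 64.9 on any array, against array medians of 34.9 to 37.4, so they give no check on the bright ones.

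Of the 4 genes with 2 or more probe sets, 3 had probe sets whose mean levels differed by 4-fold or more, against 36.9% of the 4525 such genes on the array. These 3 were Atp5po, Atp5me and Atp5if1, and the size of the difference is not given because the dim probe set lay near or below the array median. In Uqcrc2 both probe sets were bright, with 5606, 5228 and 5082 for one probe set and 1735, 1666 and 1408 for the other, and both were highest on array 1 and lowest on array 3 in deposited signal. Which part of a transcript each probe set reads was not analysed here.

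**Figure D5:**
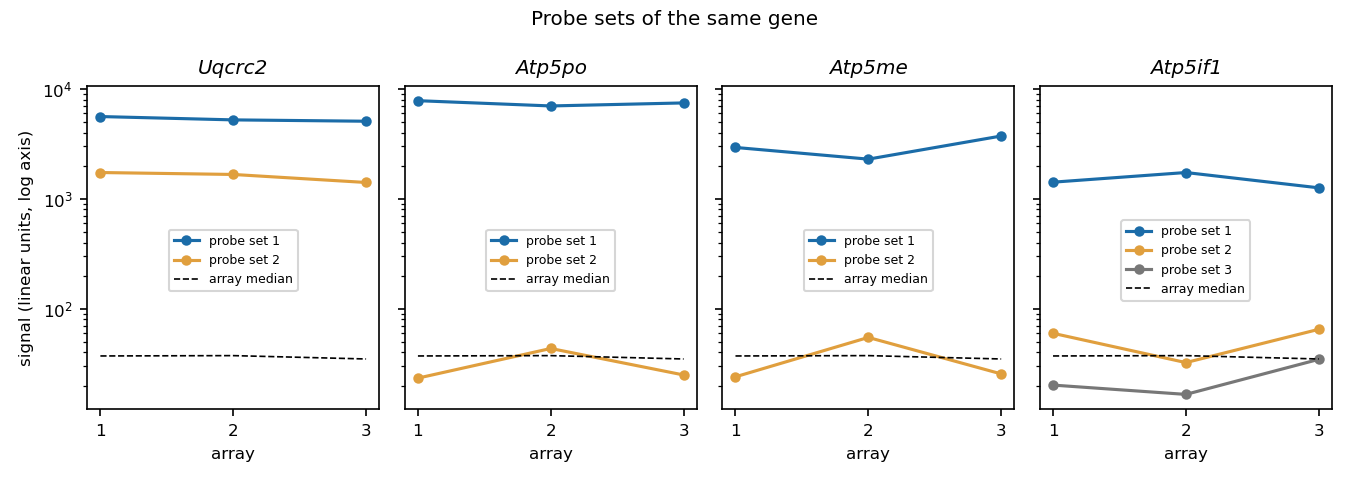
Signal (log axis, linear units) on arrays 1, 2 and 3 of each probe set of the 4 genes with 2 or 3 probe sets, with the array median as a dashed line. The probe sets of Uqcrc2 run in parallel above 1000, while the dim probe sets of Atp5po, Atp5me and Atp5if1 stay at 64.9 or less and cross or lie under the array median.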

How the data were processed

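The authors deposited 1 linear intensity for each of 31099 probe sets on an array, and the 57 controls among them were left out. The summarisation software and the scaling between arrays are not given in the sources used here. Genes were named from the probe annotation of the array: 20826 probe sets named 1 gene, 436 several and 9780 none. Each gene was represented by its brightest probe set on average, and percentiles were taken among all 14217 named genes. Deviations and ranges used log2(signal + 16), centred on the median of each array. The line for a bright member was a mean signal of 1000. With 1 group there was no test. Every member could be named, and of the other lists the highest and lowest of each assembly list, the regulators and the cytochrome c genes. Members, lists and the division into ubiquitous and restricted forms were chosen with earlier results of these data known. Alternatives were other pseudocounts (1 and 64), lines at the 25th and 75th percentiles, other gene values, filters on low values, quantile normalization, no centring and leaving out each array. Python 3.11.15, numpy 2.4.6 and pandas 2.3.3 were used, and the scripts were tested on simulated data.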

Additional observations from a re-analysis of the deposited data

How the results depend on the processing

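The count of 38 of 48 members above the array median was 38 with quantile normalization and 38 to 39 when 1 array was left out. It was 35 of 44 with plain probe sets alone (45.8% of all such probe sets). With the line at the 25th percentile 42 of 48 lay above it (65.2% of all). The median percentile of the member genes (99.01) was 98.9 without the lowest 20% of genes, 99.3 with probe sets in place of genes, and 98.98 to 99.04 without 1 array. The count of 1 member with a range of 2-fold or more was 7 with a pseudocount of 1, where 31.0% of all probe sets reached it, 0 with a pseudocount of 64, 0 among probe sets above the median level, and 0 to 1 without 1 array. The count of 3 genes with probe sets 4-fold apart was 1 among probe sets above the median level, where 2 genes were left to compare. The median deviation of all 48 members on array 1 (0.07) and array 2 (-0.10) turned to -0.0018 and 0.0037 with quantile normalization, and that on array 3 (0.04) turned to -0.0049 with it and to -0.0053 with no centring. No paired analysis was possible because the arrays form 1 group. Signals near or below the array median carry no detection call, so the restricted forms are given as low signals only.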

Other observations

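The 5 probe sets that listed a symbol of these families beside a further gene gave signals from 2432 to 9081 over the 3 arrays. All 5 exceeded the median of every array, 4 were highest on array 1 and 5 were lowest on array 2 in deposited signal. They cannot be assigned to 1 gene, and 1 of them lists Cox5a.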
